A study of Rattus norvegicus with 4 samples.

Results

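The genes described here are 10 genes of inflammation and of leukocytes in whole rat testis, picked by name and partly for large late changes in these same data. They are Pla2g2a, S100a8, S100a9, Ccl2, Ccl3, Cd4, C1qc, Cd52, Cd14 and Ptprc, and every probe set of the array that carried a single one of these symbols was read. All 10 were measured, by 16 of the 8799 probe sets in the table, and they are 10 of the 4736 genes that a probe set with 1 symbol named. Because the choice drew on their late values, the counts, folds and ranks at 24 h, and at the earlier times that share the same arrays, are a description and were not tested.

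Rats were put on a diet free of vitamin A at 20 days of age and received retinol after 9 weeks of it. The 4 groups were vitamin A-deficient testis without retinol (VAD, 0 h) and deficient testis 4, 8 and 24 h after retinol, so that the diet was common to all of them and no vitamin A-sufficient testis is used here. Each group was 1 sample, called an array below. RNA of total testis was read on an Affymetrix short-oligonucleotide array, and the labels do not say how many animals or chips stand behind a sample. The values are linear ratios per probe set without a signal level, so no gene's level can be set against another's. For the same reason the tissue label could not be checked by the level of testis markers. With 1 array per group no difference has a replicate check and no p-value exists. A gene's value is the mean of its log2 ratios over its probe sets, a change is the log2 difference between 2 arrays, and 2-fold corresponds to a log2 change of 1.

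Secreted phospholipase A2 enzymes cut a fatty acid, often arachidonic acid, from membrane phospholipids, and so feed the synthesis of prostaglandins and leukotrienes. S100A8 and S100A9 pair into calprotectin, a calcium and zinc binding complex that neutrophils and monocytes hold in large amounts and release as an alarm signal. Chemokines draw leukocytes into tissue, and the testis keeps its own resident macrophages in the interstitium, next to the Leydig cells that make testosterone. In a whole-tissue sample, fewer cells of a type and less RNA per cell cannot be told apart, and likewise more cells and more RNA per cell.

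At 24 h after retinol, 6 of the 10 genes were at least 2-fold higher than in VAD testis, namely Pla2g2a, S100a8, S100a9, Ccl3, Cd4 and C1qc. Over all genes the share at least 2-fold higher was 3.27%. Cd52 alone among the 10 was at least 2-fold lower, where the share of all genes was 2.64%. Ccl2, Cd14 and Ptprc stayed within 2-fold, Ptprc only as the mean of probe sets at 2.01, -0.75 and -0.52. The median change of the 10 genes was 1.18, with a range of -2.55 to 3.75, and that of all 4736 genes was -0.12. Nothing is read from these counts, since the choice of genes drew on them.

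**Figure D1:**
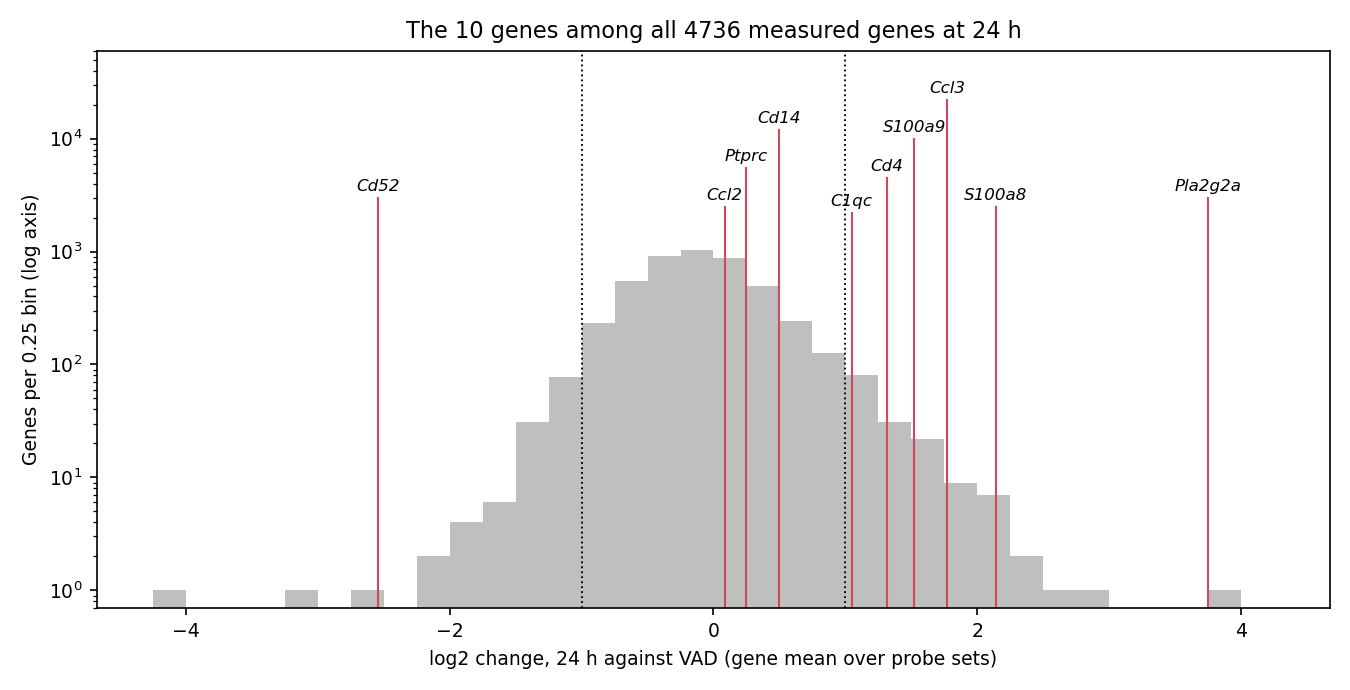
Number of genes (log axis) in bins of the log2 change at 24 h against VAD, for all 4736 measured genes, with the 10 genes drawn as red lines whose heights only keep the names apart. Dotted lines mark 2-fold. Pla2g2a lies at the upper end at 3.75, Cd52 near the lower end at -2.55, and Ccl2, Ptprc and Cd14 lie within the bulk. Each gene is the mean over its probe sets, and those of Ptprc disagreed.

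At 2-fold and as deposited, the earlier arrays held fewer such changes, which a choice drawn on late changes favours. At 4 h, Pla2g2a was the gene at least 2-fold higher, beside 1.41% of all genes, and Cd52 the gene at least 2-fold lower, beside 1.25%. On the 8 h array Pla2g2a, Ccl3 and Cd4, 3 of the 10, were at least 2-fold above VAD testis, beside 2.83% of all genes, and Cd52 was at least 2-fold lower, beside 1.88%. The median of the 10 genes was 0.64 at 4 h and 0.78 at 8 h, and that of all genes was -0.09 and -0.12. The order of the counts depended on threshold and scale. At 1.5-fold, 6 of the 10 were higher at each of 4, 8 and 24 h, beside 6.17%, 8.53% and 8.99% of all genes. Spike-in scaling gave 6, 6 and 7 at least 2-fold higher, beside 9.42%, 10.3% and 15.7%.

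The error of a single probe set was read from 1083 genes that have probe sets from different database sequences. The SD of the difference between the changes of a pair, divided by the square root of 2, came to 0.43, 0.51 and 0.57 for the 4, 8 and 24 h arrays against VAD. Between successive arrays it was 0.33 (8 h against 4 h) and 0.32 (24 h against 8 h). This spread covers probe error and leaves out the spread between animals. If the 9 bacterial spike-in probe sets set the scale, every gene would be higher by 0.55, 0.50 and 0.62 at 4, 8 and 24 h against VAD, so a negative change closer to 0 than that would turn positive. For control probe sets of actin, GAPDH and hexokinase transcripts, the change at the 5' end minus that at the 3' end was also read. It was 0.71, 1.09 and 1.01 on average at the 3 times. The 5' probe sets thus read lower relative to the 3' ones on the VAD array than on the retinol arrays. The part of these differences in the changes of the 10 genes was not tested.

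**Figure D2:**
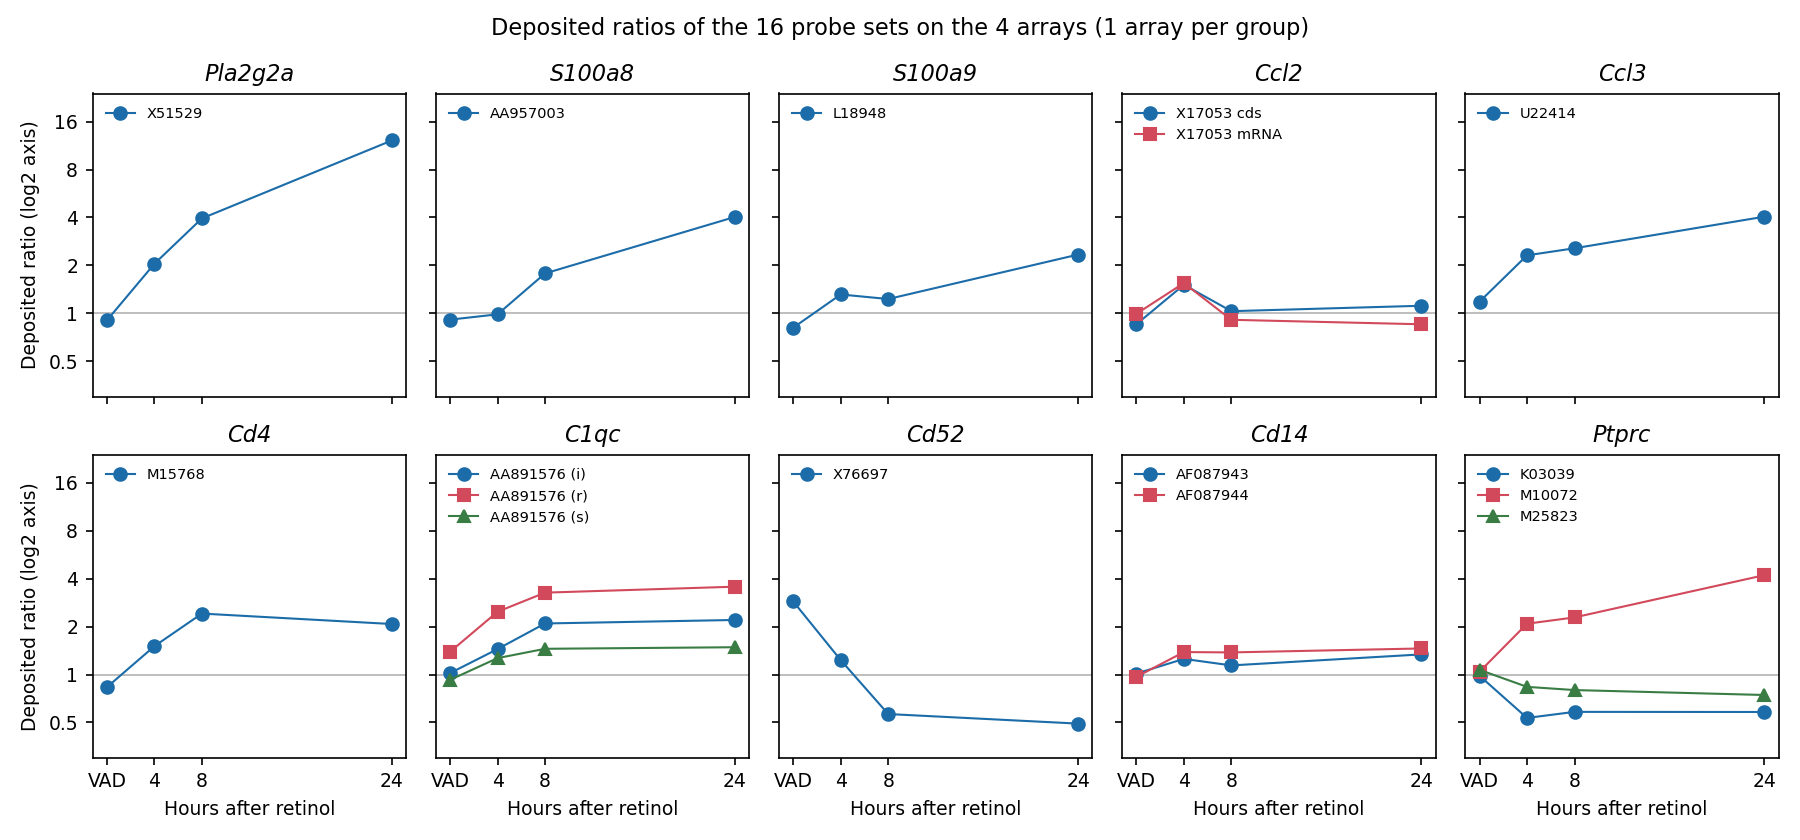
Deposited ratio (log2 axis) of each of the 16 probe sets against hours after retinol, with the VAD array at 0 h, 1 panel per gene and 1 line per probe set, named by its source sequence. Each point is 1 array, lines only join the points of a probe set, and the grey line is a ratio of 1. Pla2g2a climbs to 12.17 at 24 h, Cd52 starts at 2.875 in VAD, and the 3 Ptprc probe sets part after 0 h.

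Pla2g2a encodes the group IIA secreted phospholipase A2, an enzyme of inflammatory fluids that also kills bacteria. Its probe set, X51529_at, had deposited ratios of 0.904 in VAD testis, 2.047 at 4 h, 3.944 at 8 h and 12.17 at 24 h. Each array was thus higher than the one before it, and none of the 3 retinol arrays came near the VAD value. The 4 h array was 2.26-fold above VAD (log2 change 1.18), the 8 h array 4.36-fold (2.13) and the 24 h array 13.5-fold (3.75), the last being the largest positive change of all 4736 genes. The largest step was the last one, with 24 h 3.09-fold above 8 h (1.63), which ranked 2nd among all genes. These ranks only place the gene, which was chosen partly for this change. A single probe set reads the gene, so no other probe set bears on these values.

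The gene next to Pla2g2a in the RefSeq order of the rat genome is Pla2g5, with 0 annotated genes starting between them. Pla2g5 encodes the group V secreted phospholipase A2, an enzyme of macrophages and heart. Its ratios were 1.16 in VAD testis, 2.67 at 4 h, 4.02 at 8 h and 4.85 at 24 h, again higher on each array than on the one before. Its log2 changes against VAD were 1.20, 1.79 and 2.06 in order of time, so that at 4 h it stood beside Pla2g2a and at 24 h below it. The genes are paralogs, and whether the probe set of one also reads the other was not tested. Pla2r1, which encodes the membrane receptor that binds and clears secreted phospholipases, had ratios of 0.644, 1.34, 1.72 and 1.80 in the same order of arrays. Its change was 1.05, 1.42 and 1.48, though its VAD ratio of 0.644 lay well below 1.

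Downstream of the phospholipases the values were closer to VAD. Of the 26 measured genes of phospholipase A2 and eicosanoid synthesis other than Pla2g2a, Pla2g5 and Pla2r1 were the 2 at least 2-fold higher at each of 4, 8 and 24 h, and 0 were at least 2-fold lower (3, 3 and 7 higher with spike-in scaling, which puts 9.42%, 10.3% and 15.7% of all genes at least 2-fold higher at these times). As deposited, 1.41%, 2.83% and 3.27% of all genes were at least 2-fold higher at these times. The list median was -0.09, 0.02 and 0.09 at the 3 times. Ptgs1 and Ptgs2, the cyclooxygenases that start prostaglandin synthesis, were at 0.28 and 0.05 at 24 h, and the cytosolic phospholipase gene Pla2g4a was at -0.18. The prostacyclin synthase gene Ptgis was at -0.79, and Hpgd, whose product breaks prostaglandins down, was at 0.86.

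The sequences upstream of Pla2g2a, S100a9 and Cd52 are shown because these are the member genes with the largest changes, in each direction, for which the RefSeq promoter table (build GRCr8) had an entry. That table matched 5 of the 10 genes. Each run is the 250 bases before the annotated start, 5' to 3' on the gene's strand, and capitals mark matches to any of 8 short motifs searched on both strands.
Pla2g2a promoter, chr5:156359475-156359724, plus strand: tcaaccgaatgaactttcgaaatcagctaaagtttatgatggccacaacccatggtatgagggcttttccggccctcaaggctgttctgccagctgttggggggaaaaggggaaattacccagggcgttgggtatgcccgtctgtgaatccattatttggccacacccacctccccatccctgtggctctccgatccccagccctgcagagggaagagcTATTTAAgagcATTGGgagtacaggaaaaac
S100a9 promoter, chr2:178490623-178490872, minus strand: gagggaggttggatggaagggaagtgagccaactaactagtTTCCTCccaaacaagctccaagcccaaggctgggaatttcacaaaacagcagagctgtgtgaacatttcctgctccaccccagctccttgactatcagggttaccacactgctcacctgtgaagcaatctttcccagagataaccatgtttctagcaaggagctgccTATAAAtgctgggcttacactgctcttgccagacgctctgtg
Cd52 promoter, chr5:151605097-151605346, minus strand: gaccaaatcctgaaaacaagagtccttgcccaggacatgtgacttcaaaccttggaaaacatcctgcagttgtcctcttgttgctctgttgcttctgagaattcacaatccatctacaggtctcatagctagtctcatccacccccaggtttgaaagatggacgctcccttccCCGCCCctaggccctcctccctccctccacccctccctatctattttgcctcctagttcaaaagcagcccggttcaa
The motifs were chosen after the sequences were seen. For the core promoter they were TATAAA, the TATA box, found in 13.1% of the 27457 rat windows of this length, and the TATA-like run TATTTAA, found in 4.13%. CCAAT, the CCAAT box, was in 34.3% of windows and GGGCGG, the GC box, in 32.4%. For regulators they were AGGTCA, the core that retinoic acid receptors bind, in 13.7% of windows, and GAGGAA, a core of the myeloid factor PU.1, in 23.2%. TGANTCA, the AP-1 site, was in 6.36% and the C/EBP run TTGCGNAA in 0.739%. Pla2g2a held TATTTAA at bases 31 to 25 before the start and CCAAT, on the opposite strand, at bases 20 to 16. S100a9 held the TATA box at bases 42 to 37 and GAGGAA, on the opposite strand, at bases 209 to 204. Cd52 held the GC box, on the opposite strand, at bases 77 to 72. No match overlapped another. The AGGTCA core was in none of these 3 windows, nor in those of Cd14 and Ptprc, which held GAGGAA at 2 places and 1 place. A match is a run of letters and not a shown binding site, and the lack of one concerns only these letters in this window.

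S100a8 and S100a9 encode the 2 chains of calprotectin and are also direct neighbours in the rat genome, with 0 annotated genes starting between them. The S100a8 probe set, rc_AA957003_at, had ratios of 0.913 in VAD testis, 0.986 at 4 h, 1.781 at 8 h and 4.031 at 24 h. Its 4 h value lay close to VAD, and the increase was read at 8 h and 24 h. The S100a9 probe set, L18948_at, had ratios of 0.813 in VAD testis, 1.314 at 4 h, 1.23 at 8 h and 2.339 at 24 h. It was already above VAD at 4 h, changed little at 8 h and was highest at 24 h.

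Against VAD, S100a8 was at 0.11, 0.96 and 2.14 at 4, 8 and 24 h, and S100a9 at 0.69, 0.60 and 1.52. At 24 h these are 4.42-fold and 2.88-fold. The neighbours had different values at the earlier step: at 8 h against 4 h S100a8 was at 0.85 and S100a9 at -0.10, while at 24 h against 8 h they were at 1.18 and 0.93. This difference in timing was not tested and has no replicate check.

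The other S100 genes did not share the 24 h values of the calprotectin chains. Of the 7 measured genes of other S100 proteins and of their receptors, 0 were at least 2-fold higher or lower at any of the 3 times against VAD. No more than 3.27% of all genes were higher, or 2.64% lower, at these times, so nothing is read from that count. The list median was -0.47, -0.52 and -0.50. S100a4, a regulator of cell motility, was at -0.92 at 24 h, and S100a10, the partner of annexin A2 at the membrane, at -0.90. S100b was at -0.50, S100a1 at -0.06 and S100g at 0.08. Of the receptor genes that bind calprotectin, Ager (RAGE) was at -0.58, and Tlr4 at -0.10 as the mean of probe sets at -0.70 and 0.49. With spike-in scaling the list median at 4 h and 24 h turns to 0.08 and 0.12, and at 8 h it is -0.02.

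The chemokine genes Ccl2 and Ccl3 followed different courses. Ccl3 (MIP-1 alpha) attracts monocytes and lymphocytes. Its probe set, U22414_at, had ratios of 1.184 in VAD testis, 2.313 at 4 h, 2.562 at 8 h and 4.045 at 24 h. All 3 retinol arrays lay above VAD, with changes of 0.97, 1.11 and 1.77 at 4, 8 and 24 h, the last a 3.42-fold difference. On the log2 scale the step to 4 h was the largest, at 0.97, followed by 0.15 at 8 h against 4 h and 0.66 at 24 h against 8 h.

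Ccl2 (MCP-1) attracts monocytes through the receptor Ccr2. It was read by a pair of probe sets from 1 database sequence. The first, X17053cds_s_at, had ratios of 0.854 in VAD testis, 1.511 at 4 h, 1.032 at 8 h and 1.116 at 24 h. The other, X17053mRNA_s_at, had ratios of 0.993, 1.55, 0.911 and 0.854 in the same order. Both were highest at 4 h and back near VAD afterwards. Against VAD the mean of both probe sets gave changes of 0.73, 0.07 and 0.08 on the 4, 8 and 24 h arrays, and the 8 h array was at -0.66 against the 4 h array. At 24 h the probe sets lay on opposite sides of VAD, at 0.39 and -0.22. The inflammatory cytokine genes Il6 and Il1b also had their highest value at 4 h. Against VAD, Il6 was at 0.63, 0.27 and -0.14 and Il1b at 0.25, -0.20 and -0.09. The Il1b value at 4 h lay within the error of a single probe set (0.43). Both genes lay within 2-fold as deposited, but with spike-in scaling Il6 was at 1.18 at 4 h, past 2-fold. Other cytokine genes took other courses: Il5 was highest at 24 h, and Il1a was highest in VAD testis. Tnf, at -0.04, -0.26 and -0.01, stayed within the error of a probe set (0.43, 0.51 and 0.57). Spike-in scaling put Il1a at 0.20 at 4 h, above VAD, and Tnf at 0.51, 0.24 and 0.61. The median of the 22 measured cytokine genes at 4 h was 0.01.

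Receptors and other chemokines gave no count of higher genes as deposited. Over all genes, 1.41%, 2.83% and 3.27% were higher and 1.25%, 1.88% and 2.64% lower at 4, 8 and 24 h. Counts on a list this short are not read as a result. Of the 23 measured genes of other chemokines and chemokine receptors, 0 were at least 2-fold higher at 4, 8 or 24 h, while 1, 0 and 3 were at least 2-fold lower (4, 0 and 2 higher and 0 lower with spike-in scaling). Those at 24 h were Ccr3, the eotaxin receptor of eosinophils (-1.20), Ccl5 (RANTES, -1.12) and Cxcr2, the neutrophil chemokine receptor (-1.10). Ccl5 had ratios of 1.68, 1.04, 1.02 and 0.770 in VAD testis and at 4, 8 and 24 h, so its VAD value, like that of Cd52, lay above 1. Ccr1 was at 0.35 and Ccr2 at 0.24 at 24 h. Ccl4, the closest relative of Ccl3, was at -0.55, -0.45 and -0.60 at the 3 times, on the other side of VAD from Ccl3. With spike-in scaling these values of Ccl4 lie near 0.

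Among the genes of monocytes and macrophages, C1qc and Cd4 passed 2-fold and Cd14 did not. C1qc encodes a chain of C1q, the first component of complement, which tissue macrophages make. Its 3 probe sets all come from 1 sequence, and their suffixes (i, r and s) mark reduced or less specific probe selections. The i set had ratios of 1.021 in VAD testis, 1.445 at 4 h, 2.092 at 8 h and 2.201 at 24 h. The r set had 1.389, 2.479, 3.267 and 3.561, and the s set 0.926, 1.268, 1.451 and 1.484. All 3 were higher on each array than on the one before, with little added after 8 h. Their changes at 24 h against VAD were 1.11, 1.36 and 0.68, so the s set stayed short of 2-fold, and the gene mean was 0.60, 0.97 and 1.05 at 4, 8 and 24 h.

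Cd4 encodes the co-receptor of helper T cells, which in the rat is also carried by monocytes and macrophages. Its probe set, M15768_at, had ratios of 0.833 in VAD testis, 1.506 at 4 h, 2.414 at 8 h and 2.076 at 24 h. The highest value was at 8 h. Against VAD the changes were 0.85, 1.53 and 1.32, and the 24 h array was at -0.22 against the 8 h array, within the error of a probe set. Of the T cell genes on the marker list, Cd3d, a chain of the T cell receptor complex, was at -0.56 at 24 h. Cd2 was then at 0.50, and Cd8a, the co-receptor of cytotoxic T cells, at 0.04. On the 8 h array, where Cd4 was highest, Cd3d was at -0.69, Cd2 at 0.16 and Cd8a at 0.72, around a list median of 0.01. The 10 measured T and B cell markers ranged from -0.56 to 0.76 at 24 h, with a median of -0.01 and 0 past 2-fold. Cd40lg, the CD40 ligand of activated helper T cells, is on no list and was picked out after its values were seen. It was at 1.11, 0.33 and 1.12 at 4, 8 and 24 h against VAD.

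Cd14 encodes the co-receptor by which monocytes and macrophages sense bacterial lipopolysaccharide. Its probe set AF087943_s_at had ratios of 1.014 in VAD testis, 1.254 at 4 h, 1.141 at 8 h and 1.338 at 24 h. The second, AF087944mRNA_s_at, had 0.967, 1.384, 1.377 and 1.458. Both were above VAD on all 3 retinol arrays by less than 2-fold. The mean change was 0.41, 0.34 and 0.50, where the error of a mean of 2 probe sets was 0.30, 0.36 and 0.40.

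Ptprc encodes CD45, the receptor phosphatase present on nearly all leukocytes, and its probe sets disagreed. M10072mRNA_s_at had ratios of 1.042 in VAD testis, 2.085 at 4 h, 2.284 at 8 h and 4.207 at 24 h. K03039mRNA_s_at had 0.982, 0.534, 0.583 and 0.582, and M25823_s_at had 1.07, 0.837, 0.799 and 0.744. The first was above VAD on every retinol array and the other two below it. At 24 h their changes were 2.01, -0.75 and -0.52, and the gene mean of 0.24 describes none of them. At 4 h the first had a ratio of 2.085, against 1.042 in VAD testis, while the others were at -0.88 and -0.35, so the split was present on the first retinol array. Where each probe set lies on the transcript or its splice forms was not examined. CD45 is known for alternative splicing of its extracellular exons.

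Cd52 encodes a short lipid-anchored glycopeptide of the surface of lymphocytes and other leukocytes, which the epithelium of the epididymis also makes and passes to sperm. Its probe set, X76697_at, had ratios of 2.875 in VAD testis, 1.232 at 4 h, 0.565 at 8 h and 0.492 at 24 h. Each array was lower than the one before it. The 4 h array was 2.33-fold below VAD (-1.22), the 8 h array 5.09-fold (-2.35) and the 24 h array 5.84-fold (-2.55). The VAD ratio of 2.875 was itself the highest of all 4736 genes on that array, most of which lay close to 1. Against a ratio of 1 in place of the VAD value, Cd52 gave 0.30, -0.82 and -1.02 on the 4, 8 and 24 h arrays, so the sign at 4 h turns and 8 h falls short of 2-fold. How much of its difference rests on the VAD array cannot be told apart with 1 array per group.

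Because the epididymis also makes Cd52, the 3 measured genes of an epididymis list, Adam7, Defb1 and Gpx5, are given beside it. Adam7, a sperm-coating membrane protein of the epididymis, had ratios of 1.19, 0.791, 0.737 and 0.616 in VAD testis and at 4, 8 and 24 h. Defb1, a defensin of epithelia, had 1.30, 1.04, 0.864 and 0.733, and Gpx5, the epididymal glutathione peroxidase, had 1.03, 0.872, 0.819 and 0.726. All 3 were lower on each array than on the one before, as was Cd52, and 0 of the 3 reached 2-fold. At 24 h they were at -0.95, -0.83 (probe sets at -1.42 and -0.24) and -0.50. The error of a single probe set at the successive steps was 0.43, 0.33 and 0.32. Within it lay all steps of Gpx5 (-0.24, -0.09 and -0.17) and those of Adam7 after 4 h (-0.10 and -0.26). Defb1, at -0.32, -0.27 and -0.24, lay just beyond the error of a mean of 2 probe sets (0.30, 0.23 and 0.23). Over all genes 15.9% were lower on each array than on the one before. The part of epididymal tissue in the Cd52 values was not tested, and with spike-in scaling the list median was 0.23, -0.09 and -0.21 at the 3 times.

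**Figure D3:**
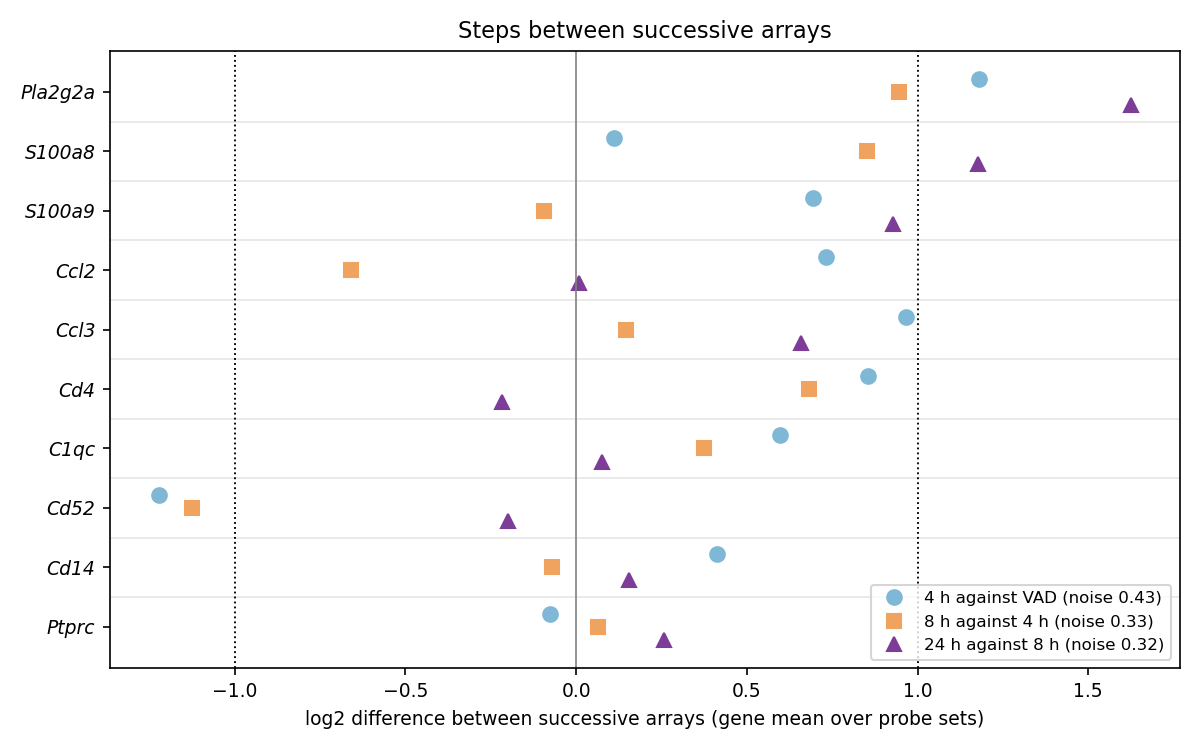
Log2 difference between successive arrays for each of the 10 genes: 4 h against VAD (circles), 8 h against 4 h (squares) and 24 h against 8 h (triangles), as the mean over probe sets. Dotted lines mark 2-fold, and the legend gives the error of a probe set at each step. Pla2g2a is right of 0 at all 3 steps, Cd52 left of 0 at all 3, and Ccl2 changes side after 4 h.

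The genes differed in the order of their steps. Pla2g2a, S100a8, Ccl3 and C1qc were higher on each array than on the one before, as were 7.75% of all genes. Of these steps, S100a8 at 4 h against VAD (0.11) and Ccl3 at 8 h against 4 h (0.15) lay within the error of a probe set. S100a9 and Cd14 were also highest at 24 h, Cd4 was highest at 8 h and Ccl2 at 4 h. The Ptprc mean was highest at 24 h, but of its probe sets only M10072mRNA_s_at was, and the others were highest in VAD testis. At 8 h against 4 h, 0 of the 10 genes were at least 2-fold higher, beside 0.718% of all genes, and Cd52 was at least 2-fold lower (-1.12), beside 0.929%. At 24 h against 8 h, Pla2g2a (1.63) and S100a8 (1.18) were at least 2-fold higher, beside 0.507% of all genes, and 0 of the 10 were at least 2-fold lower, beside 0.655%. Cd4, C1qc, Cd52, Cd14 and Ccl2 differed by less than the error of a probe set at that last step.

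Marker lists of whole leukocyte classes held few genes past 2-fold, as did all genes. Over all genes, 1.41%, 2.83% and 3.27% were higher and 1.25%, 1.88% and 2.64% lower at 4, 8 and 24 h. With lists this short, the counts are not read as a result about leukocytes. Of the 6 measured macrophage markers, 0 were at least 2-fold higher or lower at 4, 8 or 24 h, with medians of 0.04, 0.14 and 0.29. At 24 h the Fc receptor gene Fcgr2b was at 0.45, the integrin gene Itgam at 0.44, C1qb, another chain of C1q, at 0.32, the growth factor receptor gene Csf1r at -0.39 and Aif1 at -0.51. The 5 neutrophil markers had medians of -0.02, -0.15 and -0.34. Cxcr2 was the 1 of them past 2-fold, lower at 24 h, while Mmp9 was at 0.24, Mmp8 at -0.34 and Defa5 at -0.78. The 10 T and B cell markers had medians of -0.07, 0.01 and -0.01, with 0 past 2-fold and Cd79b of the B cell receptor at 0.76 at 24 h. The 24 genes of leukocyte surface and adhesion proteins include Itgam of the macrophage list. Of these 24, 0 were past 2-fold at 8 h or 24 h and 1, the endothelial selectin gene Sele (-1.18), was at 4 h. Cd40, a receptor of B cells and macrophages, is on no list and was picked out after its values were seen. It was at -0.79, -1.06 and -1.20 at 4, 8 and 24 h. Spike-in scaling, which adds 0.50 and 0.62 at 8 and 24 h, would bring Cd40 within 2-fold at both times. With spike-in scaling, which puts 15.7% of all genes at least 2-fold higher at 24 h, the counts of higher genes at 24 h were 2 macrophage, 0 neutrophil, 2 T and B cell and 4 surface and adhesion genes, with 0 lower. Itgam, then at 1.06, is counted on both the macrophage and the surface list.

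Markers of the cells of the testis itself also passed 2-fold at 24 h, beside 3.27% of all genes higher and 2.64% lower. Of 6 Leydig cell genes, Cyp11a1 (-1.95) and Cyp17a1 (-1.63), both enzymes of steroid synthesis, were at least 2-fold lower and their regulator Nr5a1 (1.63) was at least 2-fold higher, around a list median of -0.44. Of 7 Sertoli cell genes, Wt1 (1.03, from probe sets at 0.07 to 1.59) was the 1 at least 2-fold higher and 0 were lower, around a median of -0.27. The 2 red blood cell genes had a median of -0.12, with 0 past 2-fold. With spike-in scaling these medians were 0.18, 0.35 and 0.50 for the Leydig, Sertoli and blood lists, and Hbb, a haemoglobin chain gene, was then at 1.09, past 2-fold. The part of a change in the cell makeup of the tissue in the values of the 10 genes was not tested.

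The complement, cytokine and acute phase lists each held a single gene at least 2-fold higher at 24 h, where spike-in scaling gives 4, 1 and 5. Over all genes the share was 3.27% as deposited and 15.7% with spike-in scaling. Of the 19 complement genes other than C1qc, Cfp, the properdin that stabilises the alternative pathway, was the 1 at least 2-fold higher (1.10, from probe sets at 0.94 and 1.25), and 0 were lower. Cd55, which protects cells from complement, followed at 0.93 and C3 at 0.82, C3 from probe sets at -0.04 and 1.69. Of 22 cytokine genes the eosinophil factor Il5 (1.04) was the 1 at least 2-fold higher, while Tnf was at -0.01, Il1b at -0.09 and Il1a at -0.73. Of 17 acute phase genes Kng2 (1.51) was the 1, with Lbp, the lipopolysaccharide carrier that hands its load to CD14, at 0.39 and haptoglobin (Hp) at -0.79.

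**Figure D4:**
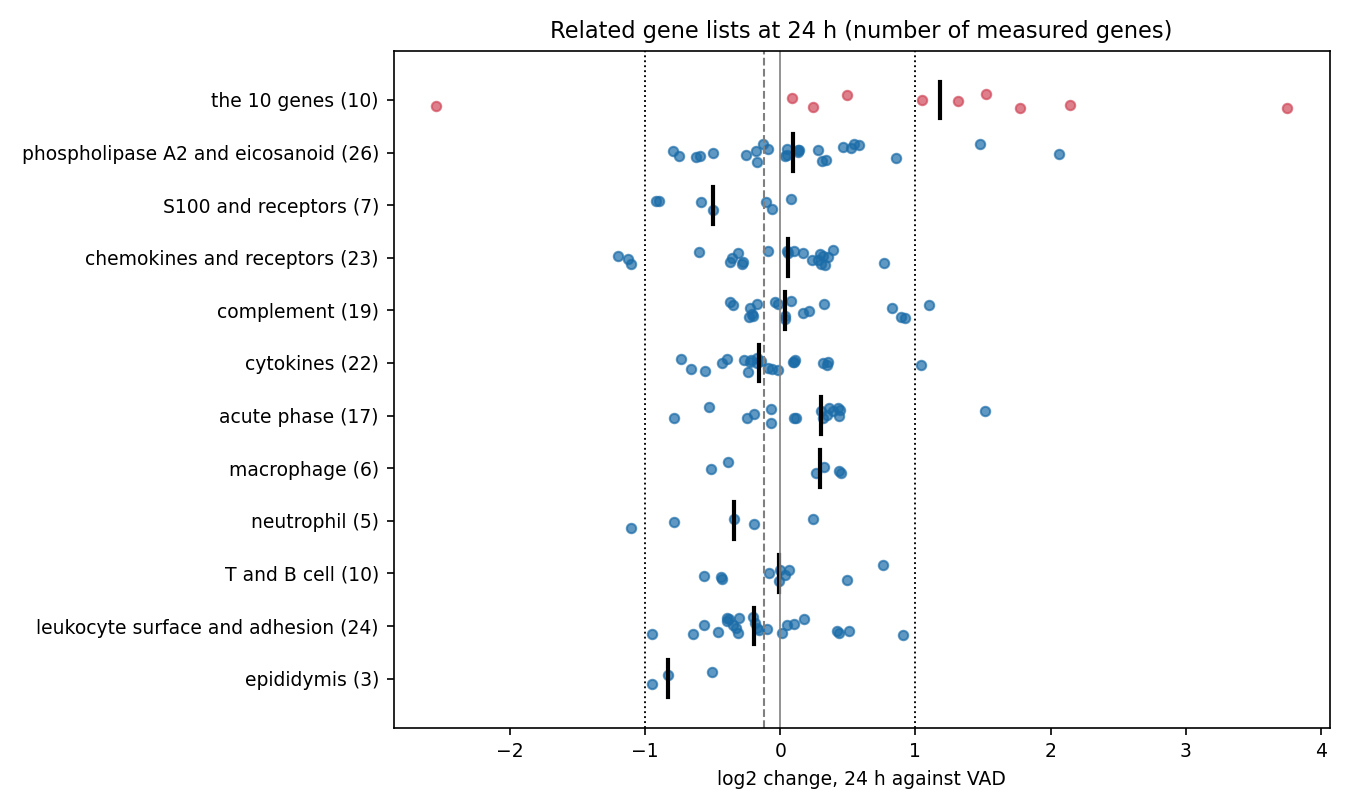
Log2 change at 24 h against VAD of each measured gene in the 10 genes (red) and in 11 related lists (blue), with the number of measured genes in brackets and black bars at the medians. Dotted lines mark 2-fold and the dashed line is the median of all genes (-0.12). The blue points beyond 2-fold on the right are Pla2g5, Pla2r1, Cfp, Il5 and Kng2.

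Likeness of course was measured as the distance between the 3 log2 changes of a gene against VAD and those of a member, over 4735 other genes and 4 arrays. For Pla2g2a the nearest were Ptprd (1.05), Gm2a (1.37), Oxsr1 (1.54), Cadm1 (1.66) and Efnb1 (1.66), and the nearest of them was at 1.18, 2.76 and 2.92 at 4, 8 and 24 h. None of these 5 reached the 3.75 of Pla2g2a at 24 h. For S100a8 the nearest were Esr1 (0.52), Fabp2 (0.59), Tnni3 (0.73), Enpp1 (0.77) and Sftpc (0.78), with Esr1 at 0.41, 1.07 and 1.73. For Cd52 the nearest were Spock2 (0.79), Tuba4a (0.80), Hsd17b8 (0.95), Strn3 (1.34) and Gabra4 (1.42), with Spock2 at -1.76, -2.48 and -3.12. With 3 values per gene and shared arrays, such likeness is a description of these arrays.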

How the data were processed

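Total RNA of whole testis was labelled as biotinylated cRNA from 10 micrograms, per the labels' protocols. The deposited values are linear ratios per probe set, and GCOS and MAS5 are named in the submitters' processing notes. What the ratios refer to, how arrays were scaled and whether any were pooled is not given in the sources used. Of 8799 probe sets, 59 controls, 308 with several symbols and 1426 not listed in the platform annotation were left out, and 7006 with 1 symbol were kept, 6985 of them with symbols updated to RefSeq. Ratios were put on the log2 scale and averaged per gene (4736 genes) with Python 3.11.15 and pandas 2.3.3. With 1 array per group no test was possible, and genes were counted past 2-fold. The count and error procedure was tested on simulated data.

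The genes, lists and alternatives were chosen with earlier results of these data known. Genes named besides the 10 are the 4 of each list with the largest change at 24 h and a fixed set, and those printed were picked from these with the values known. Cd40lg, Cd40, A2m, S100a1 and S100g came from outside both and were also picked with their values known. The 5 nearest genes were named for 3 members. The alternatives were other probe set rules, scalings, baselines and thresholds.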

Additional observations from a re-analysis of the deposited data

How the results depend on the processing

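At 24 h the counts of 6 genes higher and 1 lower stayed within 1.5 times under nearly every other setting tried. The exception was a 3-fold threshold, which left 3 higher (0.655% of all genes). At 4 h the count of 1 higher became 2 with the highest probe set per gene (2.85% of all genes). It was also 2 with arrays centred on the median of all genes (1.96%) and with 1 as the baseline (2.17%). With spike-in scaling (9.42%) and at 1.5-fold (6.17%) it became 6, and at 3-fold (0.296%) it became 0. The count of 1 lower at 4 h became 0 with spike-in scaling (0.232% of all genes), with 1 as the baseline (1.92%) and at 3-fold (0.19%). At 8 h the count of 3 higher became 5 with the highest probe set (5.15% of all genes) and with centring (3.74%). With spike-in scaling (10.3%) and at 1.5-fold (8.53%) it became 6, and at 3-fold (0.528%) it became 1. The 1 lower at 8 h became 0 with 1 as the baseline (2.55%). For 8 h against 4 h, 1.5-fold gave 3 higher (3.61% of all genes) and 2 lower (3.4%), and 3-fold 0 lower (0.106%). For 24 h against 8 h, 1.5-fold gave 4 higher (3.08% of all genes) and 3-fold gave 1 (0.0422%). The highest probe set is by construction the one with higher ratios, which for Ptprc gives 2.01 at 24 h, where the median of its probe sets gives -0.49. Cd52 at 4 h turned to 0.30 against a ratio of 1. Over all genes, 155 higher and 125 lower at 24 h became 744 and 13 with spike-in scaling and 203 and 80 with centring. Without probe sets of suffix r, i, f, s or g only 6 of the 10 genes are measured. No paired analysis was possible because each group has 1 array and no replicate number. Signal over background is not in the ratios, so dim probe sets could not be left out.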
